A study of Mus musculus with 7 samples.

Results

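Besides the usual markers of nephron progenitors, 10 genes stood high in cells sorted for these progenitors from mouse embryos: Crym, Clec10a, Padi2, Grb7, Pik3r5, Nup210, Plet1, Klhl14, Ntsr1 and Colec10. They were chosen by their measured values, because each stood among the highest genes of gated cells when these cells were set against other sorted cells of the same stage. They were read by 14 probes and are 10 of 27126 genes with a name and 55681 distinct probes on the array. The array files name 9 of them, and Plet1 was found by the RefSeq accession of its probes, which the files list as 1600029D21Rik.

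The study sorted cells of C57BL6J mouse embryos with an Osr1-GFP knock-in, so that cells expressing the transcription factor Osr1 make green fluorescent protein (GFP+; cells without it are GFP-). At E8.5, GFP+ and GFP- cells came from the embryo. At E9.5, the caudal part of the embryo gave gated cells (GFP+, positive for the integrin Itga8 and negative for the receptor Pdgfra), the remaining GFP+ cells, here called ungated, and GFP- cells. At E11.5, the metanephric mesenchyme gave gated and ungated GFP+ cells. All 7 populations carried the knock-in allele, no treatment was given, and each was measured on 1 array from 10 ng of RNA, which leaves no replicates and allows no test between populations. Each fold is therefore a difference between 2 arrays, and the spread between embryos and sorts is unknown. How many embryos were pooled, and whether they were heterozygous, is not given in the sources used here. In bulk RNA of this kind, fewer cells of a type and less RNA per cell cannot be told apart.

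Nephrons arise from progenitors in the metanephric mesenchyme, which descend from Osr1-positive intermediate mesoderm and are kept by factors such as Six2, Pax2 and Wt1, while Pdgfra and Foxd1 belong to the surrounding stroma. The genes described here are mostly known from other tissues. Crym encodes mu-crystallin, a binding protein for thyroid hormone, and Clec10a and Colec10 encode lectins, proteins that bind sugars. Padi2 turns arginine of proteins into citrulline, Grb7 is an adaptor of receptor tyrosine kinases, Pik3r5 is the regulatory subunit of phosphoinositide 3-kinase gamma, and Ntsr1 is a receptor of the peptide neurotensin. Nup210 is a membrane protein of the nuclear pore, Plet1 is a surface protein of trophoblast and epithelial progenitors, and Klhl14 belongs to the kelch-like proteins, many of which bring substrates to the ubiquitin ligase scaffold Cul3.

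What each array spot read is a 60-base piece of a transcript, and where that piece lies bears on the results below. The probe positions and the build, mm9, are those of the array files, and no exon annotation of that build was used here. The 30-base windows below are parts of the probes, 5′ to 3′ in the sense of the transcript, with the polyadenylation hexamer AATAAA in capitals where the window holds it. They are shown for the 2 members that stood furthest above the other arrays and for the 4 members with a pair of probes.
Crym: aaccaggtaaccatttcttctgttaagggg
Clec10a: agcttattgtaggcaacttttgaatgtaac
Padi2: gggaagagccaaAATAAAgagcAATAAAat
Plet1, brighter probe: agtcggtaggttttgaaggaagtatatgaa
Plet1, dimmer probe: cttgacatcccaaagccagtcggtcttcca
Nup210, brighter probe: ctgcatttgtttAATAAAgttctgtgtagt
Nup210, dimmer probe: gttcagaagatcaggcagggcaagattaca
Ntsr1, brighter probe: cAATAAAagaacaccctcctcatatgtctc
Ntsr1, dimmer probe: tggacagatgagctgttgtaaccataacag

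The probe of Crym lies at chr7:127329970-127330029 on the minus strand, and that of Clec10a at chr11:69984254-69984313 on the plus strand. Both Padi2 probes hold the window shown, since they start 5 bases apart and share 55 of 60 bases, at chr4:140508436-140508495 and chr4:140508441-140508500 on the plus strand. They are therefore not independent readings of Padi2. The Nup210 probes are far apart: the brighter starts at base 6972 of its transcript (chr6:90963064-90963123, minus strand) and the dimmer at base 798 (chr6:91035854-91035913). The Plet1 probes start at bases 1208 and 316 (chr9:50313107-50313166 and chr9:50307294-50307353, plus strand). Those of Ntsr1 start at bases 3856 and 2056 (chr2:180279625-180279684 and chr2:180277825-180277884, plus strand). The probes of 3 further genes lie at chr11:98316616-98316675 for Grb7, chr11:68310906-68310963 for Pik3r5 and chr15:54297813-54297872 for Colec10, all on the plus strand, and that of Klhl14 is not placed here.

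Levels below are on the log2 scale, relative to the 75th percentile of all signals on the same array, so that a level of 0 is as bright as that percentile. A level compares 1 gene across arrays and not 1 gene with another. The 75th percentile was a signal of 230.7 to 300.0, and 56.2% to 84.1% of spots were well above background. For probes spotted 10 times, the median SD between spots was 0.10 (log2), which makes 0.14 for a difference and holds no error other than that between spots. Where a level was not well above background, the fold is given as "at least", computed against the lowest level that was well above background on that array. The arrays lay on 2 slides, with the gate and the GFP- cells of E9.5 on the second, so a slide effect cannot be told apart from the populations in 4 comparisons: the E9.5 gate against ungated cells, against the E11.5 gate and against GFP+ cells of E8.5, and ungated against GFP- cells of E9.5. The other 4 comparisons lay within a slide.

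The sorted cells were checked against markers of their labels. Of 16 nephron progenitor markers, 12 were at least 2-fold higher in the gate than in ungated cells at each stage, against 5.15% of all measured genes at E9.5 and 10.6% at E11.5, and 2 were lower at E9.5. Of 14 stromal and mesenchymal markers, 8 at E9.5 and 11 at E11.5 were at least 2-fold lower in the gate, against 9.4% and 9.47% of all genes. The same shares of all genes stand beside every count of a gene list in the gate against ungated cells below. Pdgfra, the receptor used in the sort, had a level of -0.52 in the E9.5 gate and 3.44 in ungated cells, and was not well above background in the E11.5 gate. Foxd1, the other stromal gene named above, was 1.72-fold higher in the E9.5 gate than in ungated cells (levels of 2.67 and 1.89) and 21.9-fold lower in the E11.5 gate. Endothelial markers were also higher in the E9.5 gate, with 5 of 12 at least 2-fold above ungated cells and 1 below.

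**Figure D1:**
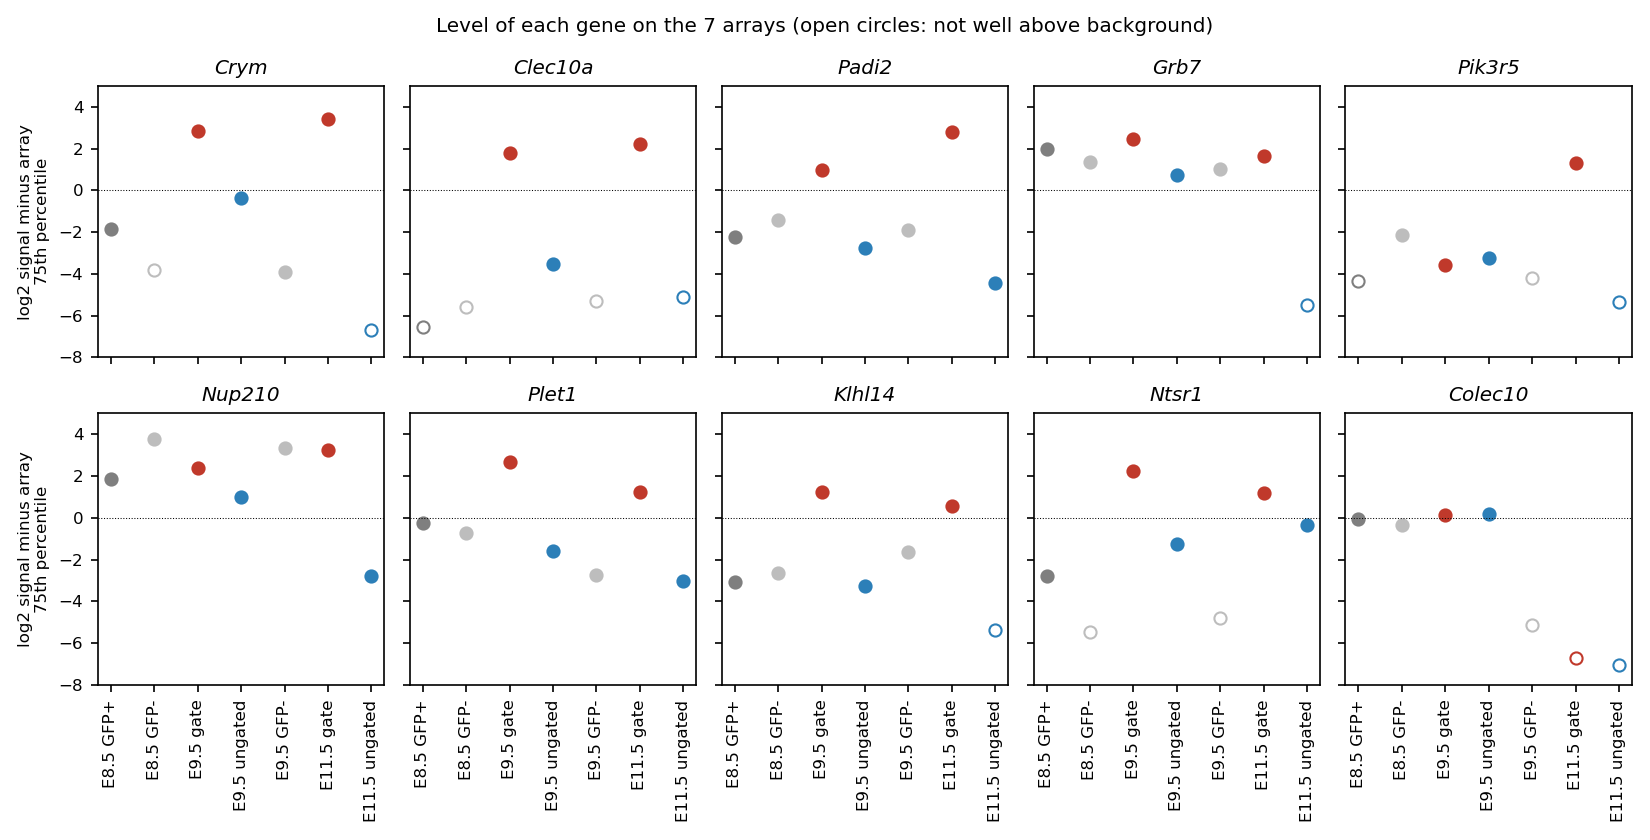
Level of each of the 10 genes (log2 scale, relative to the array's 75th percentile, vertical axis) on the 7 arrays (horizontal axis), with 1 point per array, red for the gate, blue for ungated cells and grey for the remaining populations. Both red points stood above all other points for Crym, Clec10a, Padi2, Plet1, Klhl14 and Ntsr1, and not for Grb7, Pik3r5, Nup210 and Colec10. Genes with a pair of probes are shown by the brighter probe.

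The 10 genes did not share 1 pattern. In 6 of them, by the brighter probe of a pair, both gate arrays stood above all 5 other arrays, each by at least 2-fold. Of these, 4 (Clec10a, Crym, Padi2 and Klhl14) did so by at least 4-fold. By the dimmer probe of Ntsr1 both gates, at -2.22 and -2.59, lay below ungated cells of E9.5, at -2.10. By that of Plet1 the E11.5 gate, at -1.88, lay near GFP- cells of E9.5, at -2.01. Over all 24500 genes well above background on at least 1 array, 3.96% had both gate arrays above the rest by any amount, 0.2% by 2-fold and 0.0571% by 4-fold, a background from which nothing is read because the genes were chosen for such differences. The other 4 did not mark the gate at both stages. Grb7 and, by its brighter probe, Nup210 were bright on every array except that of ungated cells at E11.5. Pik3r5 was bright in the E11.5 gate alone among the 7 arrays. Colec10 was as bright in ungated cells as in the gate at E9.5 and was not well above background in either population at E11.5.

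**Figure D2:**
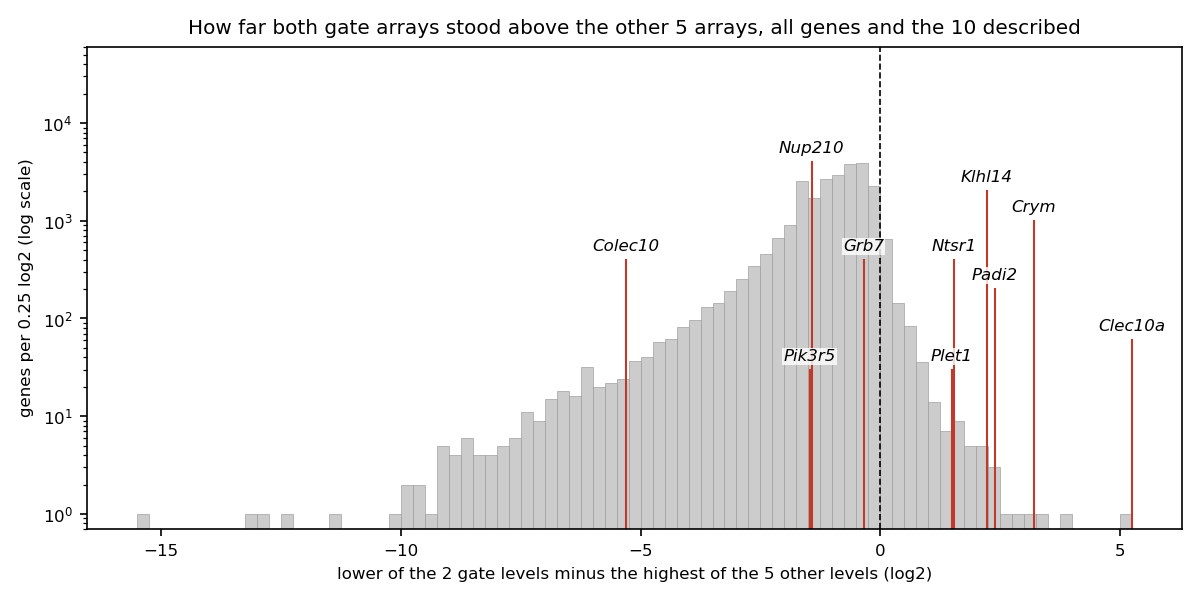
Lower of the 2 gate levels minus the highest of the 5 other levels (horizontal axis, log2) for 24500 genes in bins of 0.25 (grey bars, number of genes on a log axis), with the 10 genes as red lines. Levels not well above background were raised to the lowest level well above background on their array. Clec10a had the largest gap of all, 5.24, and Colec10 stood at -5.30 because its gate level at E11.5 was not above background.

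Clec10a, a lectin for galactose and N-acetylgalactosamine known from macrophages and dendritic cells, had the widest gap between the gate and the rest. Its levels were 1.78 in the E9.5 gate and 2.21 in the E11.5 gate. Ungated cells of E9.5 gave -3.54, and the other 4 arrays were not well above background. The 2 gate levels were close to each other and stood clear of every other array. For the gap between the lower gate level and the highest other level, dim arrays counted at their lowest level well above background. The highest other level was then -3.46, set in this way for GFP- cells of E8.5. The gap was 5.24, which ranked 1 of 24500 genes. Clec10a was 39.95-fold higher in the E9.5 gate than in ungated cells, at least 74.0-fold higher than in GFP- cells, and at least 152.5-fold higher in the E11.5 gate than in ungated cells.

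Because Clec10a is a leukocyte lectin, its paralog and leukocyte markers are given beside it. Mgl2, the lectin gene next to Clec10a, was bright everywhere, with levels of 7.21 and 7.74 at E8.5, 6.19, 6.32 and 6.18 at E9.5 (gate, ungated and GFP-) and 5.64 and 4.29 at E11.5 (gate and ungated). It did not follow the gate as Clec10a did. The probes of both genes share no run of bases longer than 5. Of 25 macrophage and leukocyte markers, 21 were well above background in the E9.5 gate, 20 in the E11.5 gate, and 14 to 21 on the other arrays. Their summed signal, in units of the 75th percentile, was 567.8 and 641.5 in the gates and 515.3 to 662.8 elsewhere. Most of that sum came from probes that were bright on every array, such as Itgam, an integrin of myeloid cells, with levels of 8.08 to 8.60. In all, 14 of the markers were well above background on all 7 arrays, among them the macrophage genes Csf1r, Adgre1, Cd68, C1qa and C1qb. C1qc and Mrc1 were not well above background on any array, the microglial receptor Cx3cr1 only in the E11.5 gate, and Laptm5, a lysosomal protein of leukocytes, only in the E9.5 gate, at least 3.55-fold above ungated cells. Tyrobp, of the same list, went the other way and was not well above background in either gate. It was at least 3.24-fold below ungated cells at E9.5 and at least 4.13-fold below them at E11.5. The part of these markers in the levels of Clec10a was not tested. At each stage 22 genes of the list were measured. In the E9.5 gate 1 was at least 2-fold higher than in ungated cells and 4 were lower, against 5.15% and 9.4% of all genes. At E11.5, 3 were higher and 2 lower, against 10.6% and 9.47%.

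Crym had the highest rank of the 10 in 2 of the gate comparisons. Its levels were 2.84 in the E9.5 gate and 3.44 in the E11.5 gate. The other arrays gave -0.37 in ungated cells and -3.90 in GFP- cells of E9.5, and -1.84 in GFP+ cells of E8.5. GFP- cells of E8.5 and ungated cells of E11.5 were not well above background. Unlike Clec10a, Crym was thus measurable in all GFP+ populations of E8.5 and E9.5. The gate was 9.21-fold above ungated cells at E9.5, 106.6-fold above GFP- cells, and at least 357.5-fold above ungated cells at E11.5. In the last 2 comparisons Crym ranked 1 among 21468 and 21632 measured genes.

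Most other genes that handle thyroid hormone were within 2-fold. Of 18 receptors, transporters, deiodinases and cofactors, 15 were measured in the E9.5 gate against ungated cells, where 1 was at least 2-fold higher and 1 lower. Of 15 measured at E11.5, none was higher and 1 was lower. Their median log2 difference was 0.10 and -0.24, beside 3.20 for Crym at E9.5 and at least 8.48 at E11.5, and beside -0.15 and 0.15 for all genes. The lower gene at E11.5 was Thra, a thyroid hormone receptor, with levels of -3.63 in the gate and -0.53 in ungated cells, a difference of 8.59-fold. Dio3, a deiodinase that inactivates the hormone, had levels between -0.39 and 0.10 on the 7 arrays.

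Padi2 was the third of the genes that both gate arrays set apart. Its levels were 0.98 in the E9.5 gate and 2.78 in the E11.5 gate. On the other arrays it was -2.25 and -1.41 in GFP+ and GFP- cells of E8.5, -2.78 and -1.89 in ungated and GFP- cells of E9.5, and -4.43 in ungated cells of E11.5. Padi2 was well above background on all 7 arrays, so its folds are measured on both sides. They were 13.5 against ungated cells at E9.5, 7.32 against GFP- cells, and 148.3 against ungated cells at E11.5, where Padi2 ranked 6. The second probe, with 55 bases in common, gave 11.4 and 6.01 at E9.5 and at least 208.4 at E11.5.

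Padi2 was the single peptidylarginine deiminase with this pattern among the 5 on the array. Padi3, Padi4 and Padi6 were within 2-fold in the E9.5 gate against ungated cells. Padi1 was at least 1.68-fold higher there, a bound that does not place it on either side of 2-fold. At E11.5, of the 3 of these genes measured, none was 2-fold higher and 1 was lower. Padi3, which lies 2 genes before Padi2 in the RefSeq gene order of GRCm38.p6, had levels between -3.90 and -1.34 on the 7 arrays. Sdhb, the next gene after Padi2 and a subunit of succinate dehydrogenase, had levels between 3.55 and 4.19.

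Klhl14 followed Padi2 most closely of the 10 genes. Its levels were 1.25 and 0.57 in the gates of E9.5 and E11.5. In other cells they were -3.09 and -2.66 at E8.5 (GFP+ and GFP-), -3.25 and -1.64 at E9.5 (ungated and GFP-), and not well above background in ungated cells of E11.5. Both gate levels stood above the rest by 2.21 or more. The gate was 22.8-fold above ungated cells and 7.44-fold above GFP- cells at E9.5, and at least 48.95-fold above ungated cells at E11.5. Its neighbour on the chromosome, the unnamed locus 4930426D05Rik, was well above background in the 2 gates alone, at -1.31 and -2.66. Of 36 genes made up of the other kelch-like genes and Cul3, 35 were measured at E9.5, with 3 at least 2-fold higher in the gate than in ungated cells and 2 lower. At E11.5, 3 of 33 were higher and 3 lower. Cul3, the ligase scaffold, had levels between 2.35 and 2.97 on all arrays.

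Plet1 was highest in the E9.5 gate. Its levels were 2.65 in the gate, -1.58 in ungated cells and -2.74 in GFP- cells of E9.5. They were -0.22 and -0.71 in GFP+ and GFP- cells of E8.5, and 1.26 and -3.03 in gated and ungated cells of E11.5. By this brighter probe the 2 E8.5 levels lay between the gates and the other E9.5 and E11.5 cells. The folds were 18.8 and 41.9 against ungated and GFP- cells at E9.5 and 19.5 against ungated cells at E11.5. The probe near the start of the transcript was dimmer and gave 6.11, 3.09 and at least 8.94 in the same comparisons. By that probe the order of E8.5 differed: both E8.5 levels lay below those of ungated and GFP- cells of E9.5. Plet1 marks epithelial progenitors, so the epithelial markers are set beside it: of 16 genes of nephric duct and ureteric bud, none was at least 2-fold higher in the E9.5 gate than in ungated cells and 6 were lower, and 3 of 13 measured were higher and 2 lower at E11.5. Their summed signal was 17.1 and 8.19 in the gates and 16.6 to 45.5 in the other populations.

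Ntsr1 was high in the gate by 1 of its 2 probes. By the brighter probe its levels were 2.27, -1.26 and not well above background in gated, ungated and GFP- cells of E9.5. They were -2.80 and not well above background in GFP+ and GFP- cells of E8.5, and 1.18 and -0.35 in gated and ungated cells of E11.5. Ntsr1 was thus the member that the E11.5 populations separated least, by 2.89-fold, against 11.52-fold and at least 104.2-fold for the E9.5 gate over ungated and GFP- cells. The dimmer probe, 1800 bases nearer the start of the transcript, was flat: its levels lay between -2.89 and -2.10 on the 7 arrays, and the E9.5 gate differed by -0.12 from ungated cells. The pattern of Ntsr1 therefore rests on 1 probe.

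The ligand of Ntsr1 was dim. Nts, which encodes neurotensin, was well above background only in ungated cells of E9.5, at -3.87, and in the E11.5 gate, at -3.88. Sort1, the sorting receptor that also binds neurotensin, had levels of 2.17 and 0.83 in gated and ungated cells of E9.5 and 2.02 and 0.69 at E11.5. Of 8 genes of neurotensin and related peptide systems, 1 of 7 measured was at least 2-fold higher in the E9.5 gate than in ungated cells and none lower, and 2 of 7 were higher and 1 lower at E11.5.

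**Figure D3:**
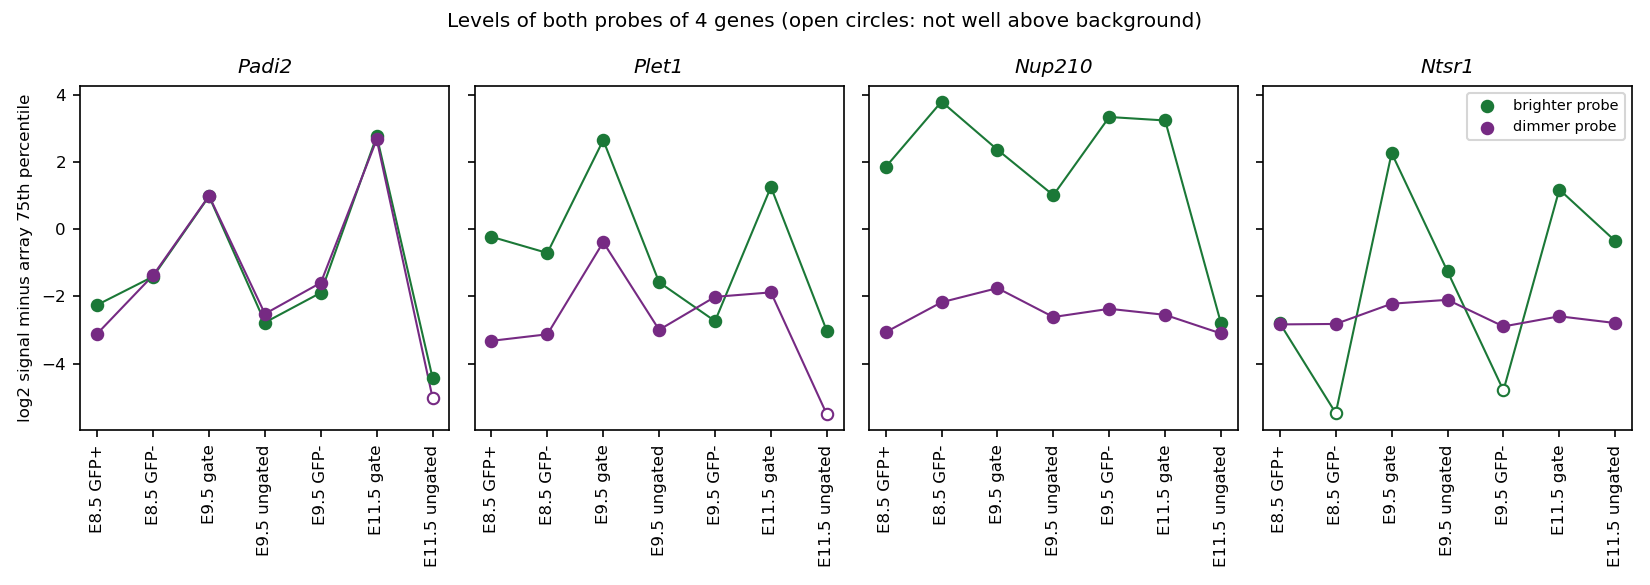
Levels (vertical axis, log2 scale, relative to the array's 75th percentile) of the brighter probe (green) and the dimmer probe (purple) of 4 genes on the 7 arrays. The Padi2 probes, which share 55 bases, ran close together and were furthest apart in GFP+ cells of E8.5 (-2.25 and -3.11). Those of Plet1 both peaked in the E9.5 gate, and the dimmer probes of Nup210 and Ntsr1 varied far less than the brighter ones.

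Grb7 was common to the sorted cells rather than particular to the gate. Its levels were 1.98 and 1.38 in GFP+ and GFP- cells of E8.5. At E9.5 they were 2.45, 0.75 and 1.04 in gated, ungated and GFP- cells. At E11.5 the gate was at 1.63, and ungated cells were not well above background. The 6 bright arrays lay within 1.69 log2 units of each other, and the seventh stood apart. The gate was 3.23-fold and 2.65-fold above ungated and GFP- cells at E9.5, and at least 102.0-fold above ungated cells at E11.5, where Grb7 ranked 7. From E9.5 to E11.5, Grb7 was at least 55.5-fold lower in ungated cells and 1.76-fold lower in the gate.

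The kinases that Grb7 binds and the genes around it are given beside it. Erbb2, a receptor bound by Grb7 that lies 2 genes before it, had levels between -2.12 and -0.97 on the 7 arrays. Ret, the receptor of Gdnf, which Grb7 also binds, was well above background on 4 arrays and on neither array of E11.5. Of 18 genes of the Grb7 family and its partner kinases, 1 of 17 measured was at least 2-fold higher in the E9.5 gate than in ungated cells and 2 lower, and 2 of 15 were higher and 3 lower at E11.5. From E9.5 to E11.5 in ungated cells, 3 of 17 were at least 2-fold higher and 3 lower, where 22.2% of all genes were lower. The 3 lower genes were receptor kinases: Ret, at least 10.1-fold, Tek, an angiopoietin receptor, at least 6.93-fold, and Epha2, an ephrin receptor, 4.03-fold. The 3 higher genes were the receptor kinases Kit, 4.11-fold, and Egfr, 2.28-fold, and the Grb7 relative Grb14, 2.625-fold. The adaptor Grb2 had levels between 0.65 and 1.10 on all arrays.

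Nup210 was brightest outside the gate by its brighter probe. That probe gave levels of 1.85 and 3.80 in GFP+ and GFP- cells of E8.5. They were 2.37, 1.02 and 3.34 in gated, ungated and GFP- cells of E9.5, and 3.24 and -2.80 in gated and ungated cells of E11.5. GFP- cells had more than GFP+ cells at E8.5, by 3.86-fold, and at E9.5 they had 1.97-fold more than the gate and 5.03-fold more than ungated cells. The levels of GFP- cells at E9.5 and the gate at E11.5 differed by less than the spot noise. Nup210 was 2.56-fold higher in the gate than in ungated cells at E9.5 and 66.05-fold higher at E11.5. The dimmer probe, 6174 bases nearer the start of the transcript, gave 1.82-fold and 1.47-fold, with levels between -3.10 and -1.75 on all arrays. By that probe the E9.5 gate was the highest, at -1.75, and stood 1.53-fold above GFP- cells.

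The rest of the nuclear pore did not separate the same populations. All 27 other nucleoporins listed were measured. At E9.5, none was at least 2-fold higher in the gate than in ungated cells and 2 were lower, and at E11.5, 3 were higher and 1 lower. Their median log2 difference was -0.17 at E9.5 and 0.37 at E11.5, beside -0.15 and 0.15 for all genes.

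Pik3r5 was high in the E11.5 gate and low elsewhere. Its level there was 1.33. It was -2.11 in GFP- cells of E8.5, -3.59 in gated and -3.25 in ungated cells of E9.5. On the other 3 arrays it was not well above background. The gate was 1.27-fold below ungated cells at E9.5 and at least 82.9-fold above them at E11.5, where Pik3r5 ranked 8, and the difference between the stages was not tested. The signals at E9.5 were 21.8 with a scanner error of 4.37 in the gate and 27.3 with an error of 4.02 in ungated cells, so they did not differ beyond that error. From the E9.5 gate to the E11.5 gate it was 30.3-fold higher, which ranked 7 from the highest of 21487 genes.

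The partners of Pik3r5 did not follow it. Pik3cg, the catalytic subunit that Pik3r5 regulates, was well above background only in ungated cells of E9.5, at -3.92. Pik3r6, the other regulatory subunit of this kinase and the next gene on the chromosome, had levels between -1.91 and -0.92 on the 7 arrays. Of 17 genes of class I phosphoinositide 3-kinases and their signalling, none of 16 measured was at least 2-fold higher in the E9.5 gate than in ungated cells and 2 were lower, and 2 of 15 were higher and 3 lower at E11.5.

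Colec10, a secreted collectin, marked early stages rather than the gate. Its levels were -0.04 and -0.34 in GFP+ and GFP- cells of E8.5, and 0.16 and 0.18 in gated and ungated cells of E9.5. GFP- cells of E9.5 and both arrays of E11.5 were not well above background. The 2 GFP+ populations of E9.5 differed by less than the spot noise. They were at least 24.2-fold and at least 24.4-fold above GFP- cells. From the E9.5 gate to the E11.5 gate Colec10 was at least 38.9-fold lower, and in ungated cells at least 37.2-fold lower.

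Endothelial markers moved partly with Colec10. Of 12 such genes, all were well above background on every array of E8.5 and E9.5, and 7 and 6 in gated and ungated cells of E11.5. Their summed signal was 36.2 and 19.04 at E8.5, 20.3, 14.4 and 9.73 in gated, ungated and GFP- cells of E9.5, and 7.09 and 5.96 at E11.5. In the E9.5 gate, 8 of 12 were at least 2-fold higher than in GFP- cells and none lower, against 5.68% and 6.42% of all genes. Against ungated cells 5 were higher and 1 lower, against 5.15% and 9.4%. Their part in the levels of Colec10 was not tested. Of 20 other lectins and partners, none of 17 measured was at least 2-fold higher in the E9.5 gate than in ungated cells and 6 were lower. In the comparisons where Colec10 differed, some moved the same way. In ungated against GFP- cells of E9.5, 6 of 17 were at least 2-fold higher and none lower, against 8.58% and 5.18% of all genes. Their median log2 difference was 0.70 beside 0.14 for all genes. In the E9.5 gate against GFP- cells, 1 of 14 was higher and 1 lower. From E9.5 to E11.5, 7 of 16 were lower and 1 higher in ungated cells, where 22.2% of all genes were lower, with a median of -0.91 beside -0.36. Between the gates, 3 of 14 were lower and none higher, where 11.9% of all genes were lower. Colec11, the collectin that pairs with Colec10 in blood, was well above background at E8.5, at -0.85 and -1.29, and was not so in either gate. Mal2, the next gene after Colec10, was well above background in the E9.5 gate, at -0.89, and in ungated cells, at -3.44, and on no other array.

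**Figure D4:**
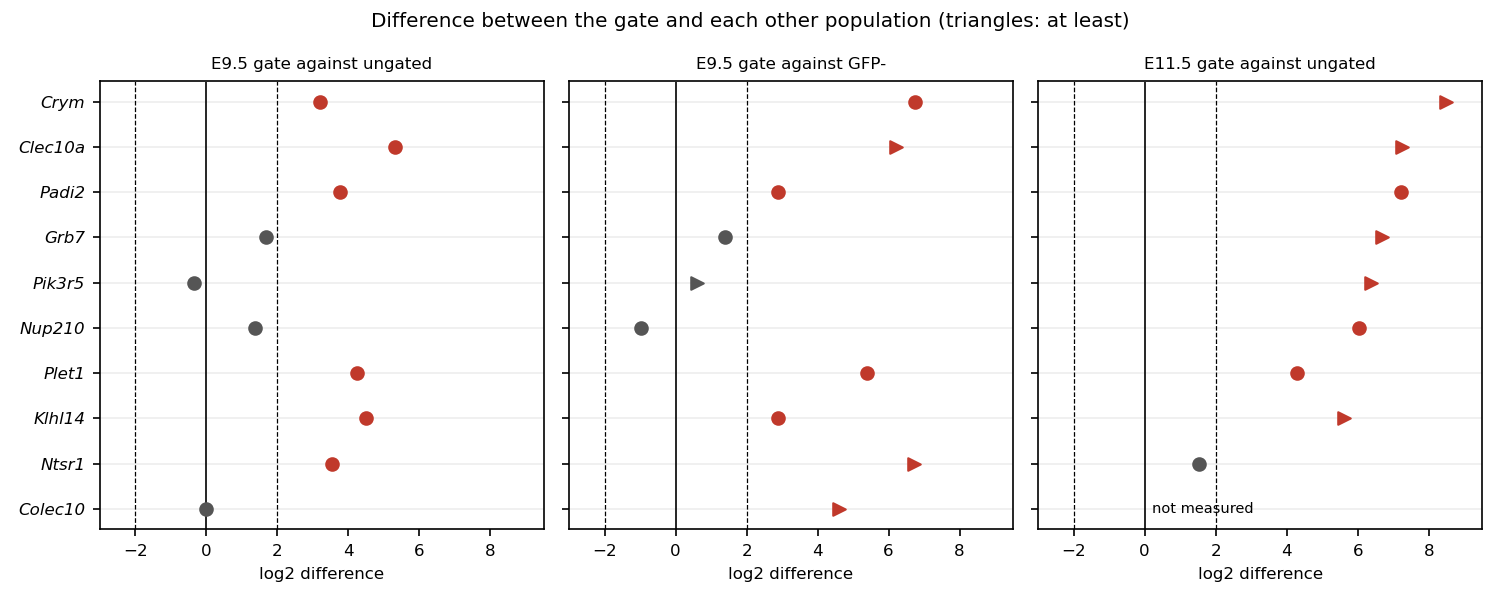
Log2 difference (horizontal axis) of each gene (vertical axis) between the gate and ungated cells at E9.5, the gate and GFP- cells at E9.5, and the gate and ungated cells at E11.5. Triangles are lower bounds, dashed lines mark 4-fold, and red marks genes at least 4-fold higher, which were 6, 7 and 8 of the 10.

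Across the gate comparisons, 6 of 10 genes were at least 4-fold higher than in ungated cells at E9.5 (0.849% of 23555 measured genes), 7 of 10 higher than in GFP- cells at E9.5 (1.19% of 21468), and 8 of 9 measured higher than in ungated cells at E11.5 (2.16% of 21632). These shares rest on the brighter probe of a pair, follow from how the genes were chosen and are given as a description. None was at least 2-fold lower. No rank was stated as a threshold for the choice, and by the levels used here the best ranks of Nup210 and Colec10 were 11 and 13. Near these ranks the values ran close together: the genes ranked 10 and 11 were 18.7-fold and 18.3-fold higher at E9.5 against ungated cells, 40.6-fold and 36.1-fold against GFP- cells, and 69.3-fold and 66.05-fold at E11.5, the last being Nup210. The size of the folds depended on the background correction. Under normexp correction the log2 differences at E11.5 were 5.59 in place of 8.48 for Crym, 4.26 in place of 7.25 for Clec10a, 3.72 in place of 6.67 for Grb7 and 3.30 in place of 6.37 for Pik3r5, so a fold given as "at least" is a bound for the main correction only. In the E9.5 gate against GFP- cells all 12 red blood cell markers were at least 2-fold lower in the gate, with a summed signal of 2.38 in the gate and 1577 in GFP- cells, and their part in the differences of the 10 genes was not tested.

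The stages differed in which of the genes they ranked high. Padi2, Grb7, Pik3r5 and Nup210 had their best ranks, 6 to 11, at E11.5. At E9.5, Padi2 was the only one of these at least 4-fold higher in the gate than in ungated cells, and it ranked 21. Plet1, Klhl14, Ntsr1 and Colec10 had their best ranks, 2 to 13, at E9.5. At E11.5, Plet1 and Klhl14 were at least 4-fold higher, Ntsr1 was 2.89-fold higher, and Colec10 was not measured. The choice named no stage, so neither stage is independent of it.

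At E8.5 there was no gate. None of 9 measured genes was at least 4-fold higher in GFP+ than in GFP- cells, where 0.996% of 18065 genes were. Crym, at least 3.07-fold higher, was the single gene shown to be past 2-fold, against 7.83% of all genes. Pik3r5, at least 4.74-fold lower, and Nup210, 3.86-fold lower, were past 2-fold in the other direction, against 6.8% of all genes. By its dimmer probe Nup210 was 1.855-fold lower. Ntsr1 was at least 1.58-fold higher by its brighter probe, a bound that does not place it on either side of 2-fold. By its dimmer probe Ntsr1 was 1.01-fold lower. The other 5 measured genes were within 2-fold, Padi2 by its brighter probe only, and Clec10a was not well above background on either array. By its second probe Padi2 was 3.34-fold lower in GFP+ cells. GFP- cells of E8.5 had the fewest spots well above background, 56.2%, so bounds against that array are loose.

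From GFP+ cells of E8.5 to the E9.5 gate, 6 genes were at least 4-fold higher, against 2.41% of 21342 measured genes. By the brighter probe of a pair, they were the same 6 that stood above all other arrays in both gates. They ran from 7.35-fold for Plet1 to at least 117.3-fold for Clec10a. GFP+ cells of E8.5 are among those other arrays, so this match is not a separate result. For Clec10a, Crym, Padi2 and Klhl14, which stood at least 4-fold above all others, it was fixed in advance. Grb7, Nup210 and Colec10 changed by less than 2-fold, and Pik3r5 was at least 1.70-fold higher. By their dimmer probes Nup210 was 2.48-fold higher and Ntsr1 1.53-fold higher. The E9.5 array of this comparison is shared with the gate comparisons.

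From the E9.5 gate to the E11.5 gate, 5 of the 10 genes differed by less than 2-fold: Crym, Clec10a, Grb7, Nup210 and Klhl14. Pik3r5 was the single gene at least 4-fold higher, against 1.28% of 21487 genes. Colec10 was the single gene at least 4-fold lower, against 3.01%. Plet1, Ntsr1 and Colec10 were at least 2-fold lower, against 11.9% of all genes, and Padi2 was 3.47-fold higher. By their dimmer probes Ntsr1 was 1.296-fold lower and Nup210 1.737-fold lower.

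In ungated cells, most of these genes were lower at E11.5 than at E9.5. None was at least 4-fold higher, against 1.62% of 23639 genes, and 9 of 10 were at least 2-fold lower, against 22.2%. Crym, Grb7, Nup210 and Colec10 were at least 4-fold lower, against 3.44%, from 14.1-fold for Nup210 to at least 55.5-fold for Grb7. Ntsr1 was the exception by its brighter probe, 1.88-fold higher, and by its dimmer probe it was 1.615-fold lower. By its dimmer probe Nup210 was 1.405-fold lower. The median of all genes in this comparison was -0.36, and under quantile normalization it was -0.05. The low level of these genes in ungated cells of E11.5 enters every E11.5 fold above.

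Ungated cells of E9.5 held some of the same genes. Crym was 11.6-fold, Ntsr1 at least 9.05-fold and Colec10 at least 24.4-fold higher there than in GFP- cells, and these were the 3 genes past 4-fold, against 0.797% of 23716 genes. With Plet1, 2.23-fold higher, 4 genes were past 2-fold, against 8.58%. The dimmer probe of Plet1 went the other way, by -0.98 (log2). By its dimmer probe Ntsr1 was 1.73-fold higher, which is under 2-fold. Nup210, 5.03-fold lower, and Klhl14, 3.06-fold lower, were past 2-fold the other way, against 5.18%. By its dimmer probe Nup210 was 1.185-fold lower. For Crym, Ntsr1 and Colec10 the E9.5 gate was thus not the single GFP+ population with a level above that of GFP- cells.

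Genes with the most similar course over the 7 arrays were found by the root-mean-square difference of levels, among 24500 genes. Each gene was centred on its own mean. Before that, levels not well above background were raised to the lowest level that was well above background on that array. Clec10a was closest to Fgf20, a growth factor of nephron progenitors, at 0.78, and to Six2, the transcription factor that maintains these cells, at 0.85. Clec10a and Fgf20 were raised in this way on the same 4 arrays. Their levels were thus measured on the other 3 alone, both gates among them. Padi2 was closest to Gfra1, a receptor of Gdnf, at 0.74. Plet1 was closest to the transcription factor Pax8, at 0.66, and Crym to Rspo1, a Wnt agonist, at 1.23. Gfra1 was well above background in both gates and in ungated cells of E9.5 alone. Pax8 was so in both gates and in GFP+ cells of E8.5 alone. Klhl14 was closest to Padi2, at 0.80, and Ntsr1 to Adh1, at 0.82. The remaining 4 were closest to genes of other kinds: Grb7 to 0610040B09Rik at 0.75 and Bmp2 at 0.79, Nup210 to Dyrk3 at 0.65, Pik3r5 to Mcpt8 at 0.50, and Colec10 to the endothelial factor Erg at 0.94. These values describe 7 arrays that share scaling and stage, and carry no test. The 10 genes were chosen for standing high in the gate, so closeness to other genes high there follows in part from that choice. By Pearson correlation in place of the root-mean-square difference, 0 to 2 of the 5 closest genes were shared, so the names depend on the measure.

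Among the 10 genes themselves, Padi2 and Klhl14 were the closest pair, at 0.80, followed by Grb7 and Nup210 at 1.08 and Plet1 and Klhl14 at 1.17. Clec10a was at 1.20 from Padi2 and at 1.28 from Crym. Colec10 was the most distant, with no other gene nearer than 2.32, the value for Grb7.

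Promoter sequences from RefSeq (GRCm38.p6) were at hand for 5 of the 10 genes: Padi2, Pik3r5, Nup210, Plet1 and Ntsr1. The 250 bases before the start are printed for the 3 of them that stood above all other arrays in both gates, with matches in capitals to TATAAA, to GGGCGG (a GC box), to CCAAT, to GCGTGGG (a site of Wt1 and Egr proteins) and to TAATTA (a homeodomain core), on both strands. Padi2 lies at chr4:140906110-140906359, Plet1 at chr9:50494275-50494524 and Ntsr1 at chr2:180499726-180499975, all on the plus strand.
Padi2: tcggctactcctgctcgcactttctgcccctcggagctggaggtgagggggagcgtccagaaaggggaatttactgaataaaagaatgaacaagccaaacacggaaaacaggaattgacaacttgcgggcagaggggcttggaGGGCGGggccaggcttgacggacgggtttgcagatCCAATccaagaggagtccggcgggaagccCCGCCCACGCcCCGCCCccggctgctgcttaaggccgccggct
Plet1: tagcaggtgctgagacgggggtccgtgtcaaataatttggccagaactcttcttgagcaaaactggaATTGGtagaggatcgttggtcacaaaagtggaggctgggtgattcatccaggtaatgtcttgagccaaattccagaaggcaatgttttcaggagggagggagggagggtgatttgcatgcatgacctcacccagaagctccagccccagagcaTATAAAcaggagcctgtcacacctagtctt
Ntsr1: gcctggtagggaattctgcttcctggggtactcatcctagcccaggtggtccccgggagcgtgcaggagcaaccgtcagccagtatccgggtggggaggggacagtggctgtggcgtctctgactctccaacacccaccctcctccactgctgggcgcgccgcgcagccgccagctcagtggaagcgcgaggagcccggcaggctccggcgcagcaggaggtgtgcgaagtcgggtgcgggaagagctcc

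The 3 promoters did not resemble each other. That of Plet1 held a TATAAA, as 12.4% of 32851 promoter windows of this length did, and 3 CpG dinucleotides. Those of Padi2 and Ntsr1 held 17 and 18 CpG and no TATAAA, beside a median of 6 over all windows. Padi2 held 3 matches to GGGCGG, a motif present in 32.7% of windows, and 1 to GCGTGGG, present in 4.3%, which overlaps a GC box. Padi2 and Plet1 each held 1 CCAAT, present in 33.9%, and Ntsr1 held none of the 5 motifs. No window of the 5 genes held TAATTA, present in 4.84%. Nup210 held 30 CpG, 2 GC boxes and 1 GCGTGGG, and Pik3r5 held 14 CpG and 4 GC boxes. A match is a run of letters and not a bound site.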

How the data were processed

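RNA of 7 sorted populations was amplified from 10 ng with a whole-transcriptome kit and hybridised to 1 single-colour array each, per the labels' protocols. The submitters' processing notes name Agilent Feature Extraction 10.7.3.1 for the spot intensity. This intensity is a processed signal, background-subtracted and detrended but not scaled between arrays, per the file headers. On every array the 62976 entries of the deposited value table equal this intensity, so the table is linear and not centred.

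From these intensities, levels on the log2 scale were computed by subtracting from each signal the 75th percentile over the 59305 non-control spots of its array. Spots marked as outliers (127 to 160 per array) were left out, and spots of a probe were averaged. The flag for well above background was taken from the files and had to hold for a share of 0.5 or more of a probe's spots. Symbols came from RefSeq by accession for 26419 probes and from the array files for 8939, and 20323 had none. The probe with the highest mean level stood for a gene. A gene was measured in a comparison where it was well above background on at least 1 of the 2 arrays. A dim side was raised to the floor of its array where it lay under it, the floor being the lowest level flagged well above background, from -5.12 to -3.46, and the fold was left out where this turned its sign. Folds from 4 were counted for the 10 genes, and from 2 for the gene lists.

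With 1 array per population there were no replicates and no test, so precision is limited by how few arrays there were. The text names the 10 genes with all their probes, genes of the pathway and marker lists, neighbours on the chromosome and the 5 genes most like each; the neighbours and the examples within lists were selected with their values in view. The genes and lists were chosen with earlier results of these data known. Alternatives were quantile normalization, the unscaled value table, normexp background correction (offset 50, limma 3.58.1 in R 4.3.3), the mean of all probes, other filters on dim probes, a 2-fold count and, chosen after seeing the data, the dimmer of a pair of probes. The steps were tested on simulated data.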

Additional observations from a re-analysis of the deposited data

Results flagged for a closer look

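Pik3r5 had a difference of opposite sign in the same contrast at the 2 stages, but that at E9.5 was under 2-fold and within the scanner error of dim signals. Its log2 difference between the gate and ungated cells was -0.34 at E9.5 (levels of -3.59 and -3.25) and at least 6.37 at E11.5 (1.33, against a level not well above background). With 1 array per population, the difference between the stages was not tested.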

How the results depend on the processing

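The counts of genes at least 4-fold higher stayed within 1.5 times of the reported ones under quantile normalization, on the unscaled table and with the mean of all probes. The sizes moved more than the counts: under normexp correction 57 of 78 differences of the 10 genes moved by more than the spot noise and none turned its sign, with Clec10a at E9.5 (gate minus ungated) at 3.50 in place of 5.32. With all probes averaged, the E9.5 difference of Ntsr1 was 1.70 in place of 3.53. Under normexp correction the count for ungated against GFP- cells of E9.5 was 1 in place of 3. When genes had to be well above background on both arrays, the count was 4 in place of 7 for the E9.5 gate against GFP- cells, 3 in place of 8 at E11.5, and 1 in place of 3 for ungated against GFP- cells, since that setting leaves out the bounds. At E8.5 it was 1 in place of 0 with no filter or bound and also at 2-fold, and between the gates 2 in place of 1 at 2-fold. Of the differences of at least 4-fold, the direction of 1 turned: Ntsr1 (E9.5, gate minus ungated) was -0.12 by its dimmer probe and 3.53 by the brighter. Of the smaller ones, the sign of 6 turned by the dimmer probe and that of Colec10 at E9.5 (gate minus ungated), -0.01 here, on the unscaled table. The median over all genes moved with the scaling, at E9.5 (gate against ungated cells) from -0.15 to -0.05 under quantile normalization, and at E11.5 from 0.15 to -0.06 on the unscaled table. The share of 4-fold calls over all genes that were higher went from 41.7% to 58.9% and, for ungated cells between stages, from 31.9% to 63.4% under quantile normalization. No paired analysis was possible because each population had 1 array. Values near or below background carry bounds only.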
